A study of Mus musculus with 10 samples.

Results

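The set described here is 42 genes of the TCA cycle and of amino acid catabolism, listed by name, with earlier results of these data known. They were found among the 43629 genes of each count file by matching Ensembl identifiers to mouse symbols, and all 42 were matched. They comprise 6 genes through which pyruvate enters the cycle and 13 listed as cycle genes, among them Mdh1, which encodes a cytosolic enzyme. A further 6 belong to the entry steps of branched-chain amino acid breakdown, 13 to its later steps, and 4 are transaminase and glutamate dehydrogenase genes. Sequencing covered skeletal muscle of mice lacking IMP2 (KO) and of wild-type mice (WT). IMP2 is an mRNA-binding protein encoded by Igf2bp2, and beside total RNA the RNA pulled down by a home-made IMP2 antibody (immunoprecipitation, IP) was read. The 10 libraries were 3 of KO total RNA, 3 of WT total RNA, 2 of KO IP and 2 of WT IP. Mice of both genotypes were C57BL/6 males aged 6 weeks, fed high-fat food over 2 weeks. Sample labels call the genotype an IMP2 null, whereas the series description speaks of a knockout specific to muscle, and which part of Igf2bp2 was removed is not given in the sources used here. Nothing in the labels ties the libraries to different animals, so the p-values cover only the spread between these samples, which may be technical.

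In muscle mitochondria, pyruvate is turned into acetyl-CoA by the pyruvate dehydrogenase complex, and the TCA cycle oxidises acetyl-CoA while supplying electrons to the respiratory chain. Leucine, isoleucine and valine are broken down in muscle to a large extent: a transaminase removes the amino group, the branched-chain dehydrogenase complex commits the carbon skeleton to oxidation, and the later enzymes feed acetyl-CoA or succinyl-CoA to the cycle. Transaminases and glutamate dehydrogenase connect cycle intermediates with aspartate, alanine and glutamate.

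Libraries of total RNA held 9691580 to 10739792 gene counts in KO and 12299030 to 14809788 in WT, and IP libraries 917462 and 4037480 in KO and 2159115 and 2547124 in WT. Igf2bp2 had 21, 19 and 21 counts in KO total RNA, against 35, 37 and 48 in WT total RNA, a log2 difference of -0.36 ± 0.28 (SE), and it had 9 and 25 counts in KO IP, against 28 and 4 in WT IP. Its reads were few in every library and the difference did not pass the test, so they do not by themselves check the genotype labels. Markers of fast fibres, the main muscle fibres of most mouse limb muscles, summed to 191679 to 249248 CPM (the usual depth-scaled count, relative to the scaled total of each library) in KO total RNA and 103324 to 175135 CPM in WT total RNA, with WT replicate 3 lowest. KO total RNA replicate 1 held 2253 CPM of pancreatic islet markers, while KO replicates 2 and 3 held 2.12 and 2.32 CPM and WT libraries 0.930 to 1.74 CPM. In the IP these markers summed to 162 to 427 CPM in KO and 49.7 to 384 CPM in WT, so they were present in every IP library.

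Per kilobase of exon, the 42 genes spanned more than 3 orders of magnitude in muscle, in nearly the same order in both genotypes (Spearman's rho 0.996 over the 42 genes, a description of levels that share one set of lengths). Malate dehydrogenases ranked highest with this length: Mdh2, the mitochondrial enzyme, averaged 402 ± 56.8 CPM per kb in KO and 358 ± 29.9 CPM per kb in WT, and Mdh1, the cytosolic enzyme, 327 ± 33.3 in KO and 361 ± 26.5 in WT (SD, n = 3 libraries each). In both genotypes the ranges of these 2 genes overlapped. With the principal transcript's length Mdh2 was highest in both genotypes, and Mdh1 ranked 4 of 42 in KO and 5 of 42 in WT. Next came Pdha1, Idh3b, Ogdh, Cs, Idh3g, Got1, Sucla2 and Idh3a, with means of 161 to 253 CPM per kb in KO and 163 to 241 in WT. Neighbours in this part of the order overlapped in range, except Got1 and Sucla2 in KO. Bcat1, the cytosolic branched-chain aminotransferase, was lowest, at 0.212 ± 0.0346 CPM per kb in KO and 0.172 ± 0.0182 in WT.

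**Figure D1:**
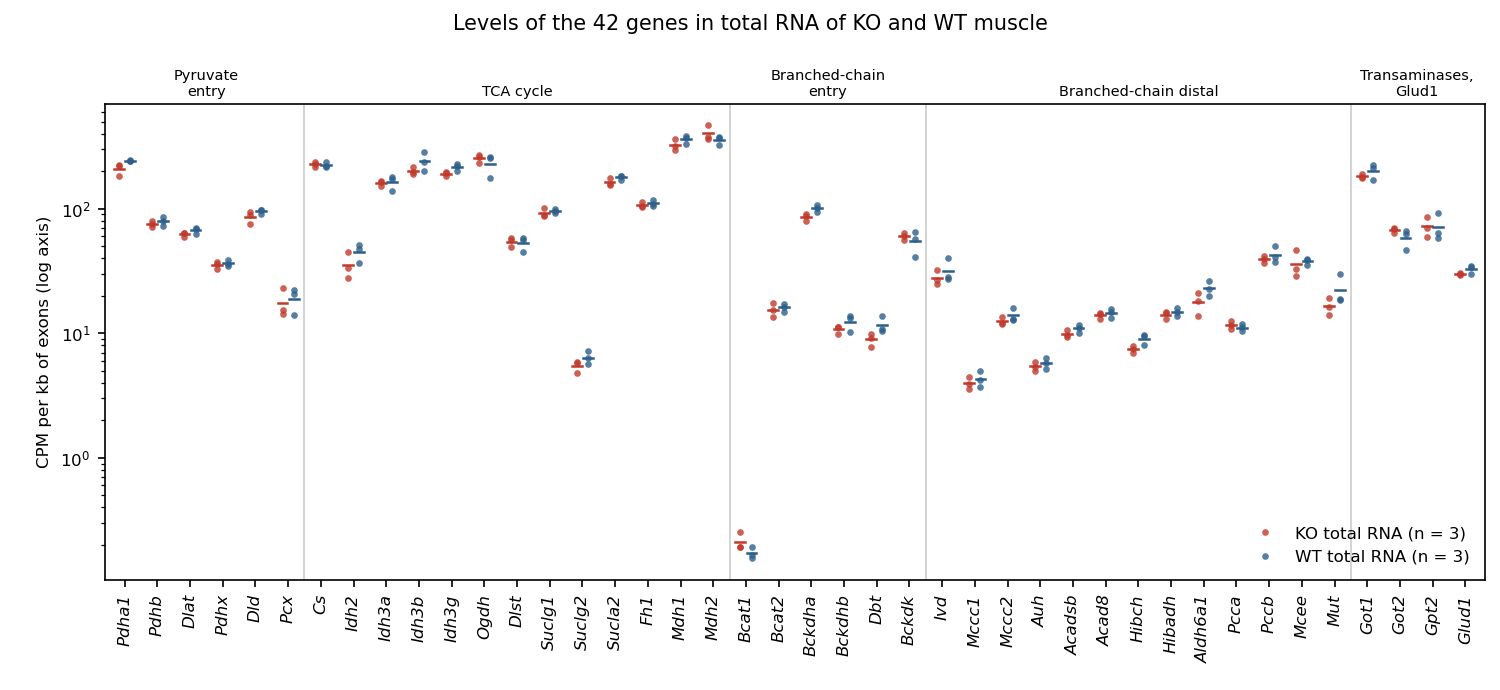
Levels of the 42 genes in total RNA, in CPM per kb of exons on a log axis, ordered by role. Points are libraries (3 of KO left, 3 of WT right of each pair) and bars are means. Most TCA cycle genes lie above most branched-chain genes, with Suclg2 low among cycle genes and Bckdha high among branched-chain genes, and Bcat1 lies below 0.3 CPM per kb in every library.

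The TCA cycle genes, Mdh1 included, supplied most of the set's counts. They held 64.7%, 65.4% and 67.3% of the set's summed CPM in the KO libraries and 64.3%, 65.3% and 63.6% in WT. The later branched-chain genes supplied 6.69% to 7.47% in KO and 7.13% to 8.66% in WT, and the 6 entry genes 3.50% to 3.76% in KO and 3.42% to 3.83% in WT. All 42 genes together came to 12691, 12854 and 12952 CPM in KO, against 13655, 13314 and 12989 CPM in WT. The highest KO sum lay just under the lowest WT sum, so the groups did not overlap, by a margin smaller than the range within either group.

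Partner genes were unequal in level. Succinyl-CoA synthetase joins a shared alpha subunit, Suclg1, to a beta subunit that makes ATP (Sucla2) or GTP (Suclg2). Sucla2 exceeded Suclg2 29.8-fold per kb in KO and 28.3-fold in WT (38.9-fold and 36.9-fold with the length of the principal transcript). Bcat2, the mitochondrial branched-chain aminotransferase, exceeded Bcat1 74.3-fold in KO and 94.5-fold in WT, and 44.9-fold and 57.1-fold with principal transcripts. For 3 other pairs the ratio also rested on the length used. Mdh2 over Mdh1 was 1.23 in KO and 0.995 in WT with all exons, but 2.48 and 2.01 with principal transcripts. Pdha1 over Pdhb, the alpha and beta subunits of the first (E1) enzyme of pyruvate dehydrogenase, was 2.80 in KO and 3.07 in WT, but 1.44 and 1.58 with principal transcripts. Got1 over Got2, the cytosolic and mitochondrial aspartate transaminases, was 2.72 in KO and 3.56 in WT, but 1.76 and 2.31 with principal transcripts.

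In the branched-chain dehydrogenase complex the alpha subunit stood apart. Bckdha, the alpha subunit of its E1 enzyme, lay at 86.2 ± 5.91 CPM per kb in KO and 101 ± 6.09 in WT, 8.03-fold (KO) and 8.39-fold (WT) above Bckdhb, its beta subunit. Over Dbt, the E2 transferase core, it was 9.80-fold higher in KO and 8.81-fold higher in WT. Bckdk, the kinase that switches the complex off, lay between, at 60.2 ± 3.90 CPM per kb in KO and 54.5 ± 12.4 in WT. With principal transcripts Bckdha was 6.55-fold (KO) and 6.84-fold (WT) above Bckdhb, and 9.67-fold and 8.69-fold above Dbt. Exons of Bckdha overlap a gene on the opposite strand, and the strand setting of the counting is not given in the sources used here. Among the subunits of NAD-dependent isocitrate dehydrogenase, the regulatory genes Idh3b and Idh3g were 1.24-fold and 1.18-fold above the catalytic Idh3a in KO, and 1.51-fold and 1.35-fold above it in WT.

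Between genotypes, most of the set lay slightly lower in KO total RNA, and no member passed the test. Of the 42 genes, 33 were lower in KO than in WT and 9 were higher, with a median log2 difference of -0.11 and a range of -0.44 to 0.30. Over all 13169 genes tested, 52.0% were lower in KO and the median was -0.01. No gene, member or other, passed in either direction at a Benjamini-Hochberg adjusted p of 0.05 in the quasi-likelihood test of edgeR (0% of genes called lower). DESeq2 called 3 of all genes and no member. At an unadjusted p under 0.05, edgeR had 569 genes, of which 302 (2.29% of those tested) were lower in KO, and 1 member, Dbt. With TMM, the scaling of edgeR used here, replaced by library size, the median of all genes was -0.23 and that of the set -0.33, with 40 members lower. Relative to all genes the set's median was thus -0.10 under both scalings.

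By role, all 6 pyruvate-entry genes were lower in KO (median log2 -0.11), as were 9 of 13 cycle genes (median -0.05), 4 of 6 branched-chain entry genes (-0.13), 12 of 13 later branched-chain genes (-0.13) and 2 of 4 transaminase and glutamate dehydrogenase genes (-0.06). None of these members passed the adjusted test. The cycle genes above 0 were Cs, which condenses acetyl-CoA with oxaloacetate, Ogdh and Dlst of the oxoglutarate dehydrogenase complex, and Mdh2, with log2 differences of 0.02 to 0.17. Without WT total RNA replicate 3 the median of the set was -0.07, with 31 members lower.

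In 5 members every KO library lay below every WT library, and in 1 every KO library lay above. Groups failed to overlap in this way for 4.85% of all genes on the lower and 4.76% on the higher side, so the set's 5 of 42 was above and its 1 of 42 below the share of all genes. No test of these counts was made.

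Pdha1, the catalytic E1 alpha subunit of pyruvate dehydrogenase (chromosome X, 160122209 to 160138413, minus strand, GRCm38), had 771, 770 and 646 CPM in KO and 828, 860 and 845 CPM in WT. The log2 difference was -0.21 ± 0.16 (SE), and KO replicate 3 was the low library. Without KO replicate 3 it was -0.12. Pdha1 shares exonic bases with Map3k15 on the opposite strand, and whether the counting used strand is not given in the sources used here.

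Idh3g, the gamma subunit of NAD-dependent isocitrate dehydrogenase (chromosome X, 73778963 to 73786897, minus strand), had 487, 457 and 497 CPM in KO and 554, 510 and 580 CPM in WT. Its log2 difference was -0.19 ± 0.15. The closest libraries of the 2 groups were KO replicate 3 and WT replicate 2.

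Bckdha (chromosome 7, 25629946 to 25658981, minus strand) had 154, 141 and 163 CPM in KO and 188, 182 and 169 CPM in WT, a log2 difference of -0.23 ± 0.14. Its partner Bckdhb had 16.6, 18.7 and 19.1 CPM in KO and 17.0, 22.3 and 23.2 CPM in WT, where WT replicate 1 fell among the KO libraries. Dbt (chromosome 3, 116513070 to 116549981, plus strand) had 28.3, 30.7 and 24.5 CPM in KO and 33.9, 32.6 and 43.7 CPM in WT, with WT replicate 3 standing above the rest. Its log2 difference was -0.40 ± 0.17 (unadjusted p = 0.042, Benjamini-Hochberg adjusted p = 0.897 in edgeR), and without WT replicate 3 it was -0.25. Bckdk had 208, 193 and 221 CPM in KO and 224, 197 and 143 CPM in WT, a log2 difference of 0.14 ± 0.19 that turned to -0.02 without WT replicate 3 and to -0.06 with library size alone.

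Hibch, which hydrolyses 3-hydroxyisobutyryl-CoA in valine breakdown (chromosome 1, 52844929 to 52920986, plus strand), had 41.8, 44.6 and 39.3 CPM in KO and 45.0, 53.7 and 55.2 CPM in WT. Its log2 difference was -0.29 ± 0.15, and KO replicate 2 and WT replicate 1 nearly met. Bcat1 was the member that lay higher in every KO library, with 15, 18 and 20 counts in KO and 25, 20 and 21 counts in WT. In CPM these were 1.67, 1.66 and 2.21 in KO and 1.66, 1.45 and 1.38 in WT, so the lowest KO and highest WT values were the same to 3 digits. The log2 difference of 0.30 ± 0.30 was no larger than its error, and was 0.17 without KO replicate 3 and 0.08 with library size alone.

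Promoters are printed for 4 of the 5 members whose KO libraries all lay lower in total RNA, none of which passed the adjusted test. They run 5' to 3' along the gene's strand, from 250 bases before to 50 after the annotated start, from RefSeq in GRCm38.p6. Capitals mark a match to AAGATGGCG, a core of the YY1 motif.
Pdha1, chrX:160138381-160138680, minus strand: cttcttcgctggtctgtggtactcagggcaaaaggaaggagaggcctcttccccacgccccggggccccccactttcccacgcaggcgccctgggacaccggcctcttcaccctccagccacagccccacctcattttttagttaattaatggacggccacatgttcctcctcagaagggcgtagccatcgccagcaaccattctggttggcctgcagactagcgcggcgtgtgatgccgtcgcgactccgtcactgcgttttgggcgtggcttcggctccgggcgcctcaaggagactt
Idh3g, chrX:73786848-73787147, minus strand: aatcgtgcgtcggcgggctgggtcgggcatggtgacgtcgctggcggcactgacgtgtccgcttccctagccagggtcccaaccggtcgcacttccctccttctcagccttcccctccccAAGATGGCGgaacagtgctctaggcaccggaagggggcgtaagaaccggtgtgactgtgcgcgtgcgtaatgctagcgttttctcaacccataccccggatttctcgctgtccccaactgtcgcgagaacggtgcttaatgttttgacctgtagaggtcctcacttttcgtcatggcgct
Bckdha, chr7:25658712-25659011, minus strand: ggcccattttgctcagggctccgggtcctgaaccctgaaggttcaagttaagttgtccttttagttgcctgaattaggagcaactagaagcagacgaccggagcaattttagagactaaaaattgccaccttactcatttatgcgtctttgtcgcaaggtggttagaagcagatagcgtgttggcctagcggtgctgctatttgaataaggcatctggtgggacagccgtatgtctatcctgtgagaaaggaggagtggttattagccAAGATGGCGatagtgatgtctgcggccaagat
Hibch, chr1:52844788-52845087, plus strand: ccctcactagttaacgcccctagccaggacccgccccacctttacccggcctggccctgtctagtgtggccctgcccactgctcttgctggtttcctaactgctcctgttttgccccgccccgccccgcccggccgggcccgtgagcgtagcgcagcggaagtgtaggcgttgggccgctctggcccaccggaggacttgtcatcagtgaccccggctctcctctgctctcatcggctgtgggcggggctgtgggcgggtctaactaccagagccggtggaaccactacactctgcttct

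Promoter sequences were matched for 39 of the 42 genes, and Idh3a, Dbt and Mut had none. The YY1 core AAGATGGCG, searched on both strands, occurred in 2 of the 39, Idh3g and Bckdha, 130 bases before and 18 bases after the start, a share of 5.13% against 1.64% of 27025 genes. GCGCATGCG, a core of NRF1, a regulator of nuclear genes for mitochondria, occurred in Ogdh and Pccb (5.13% against 1.95%). The GABPA core CCGGAAGT occurred in Dlst alone (2.56% against 4.31%), and TCAAGGTCA, the core bound by oestrogen-related receptors, in none against 0.466%. With 1 or 2 matches these shares rest on single genes, and a match is a description of the letters, not a bound site.

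Larger differences that did overlap were seen in 3 members. Mut, the mutase that makes succinyl-CoA, had 57.4, 67.4 and 50.2 CPM in KO and 66.6, 65.1 and 106 CPM in WT. Its log2 difference of -0.44 ± 0.22 was the lowest of the set and was -0.17 without WT replicate 3, the single high library. Aldh6a1, methylmalonate semialdehyde dehydrogenase of valine breakdown, had 97.5, 114 and 75.3 CPM in KO and 122, 109 and 144 CPM in WT (log2 -0.38 ± 0.19, and -0.22 without KO replicate 3, its low library). Idh2, the mitochondrial NADP-dependent isocitrate dehydrogenase, had 66.3, 108 and 80.5 CPM in KO and 114, 89.3 and 125 CPM in WT (log2 -0.36 ± 0.21). In Idh2, KO replicate 2 lay inside the WT range, and the difference was -0.57 without it and -0.21 without KO replicate 1. Mdh2 had 1196, 1254 and 1564 CPM in KO and 1251, 1241 and 1087 CPM in WT, a log2 difference of 0.17 ± 0.18 that was -0.05 with library size alone.

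**Figure D2:**
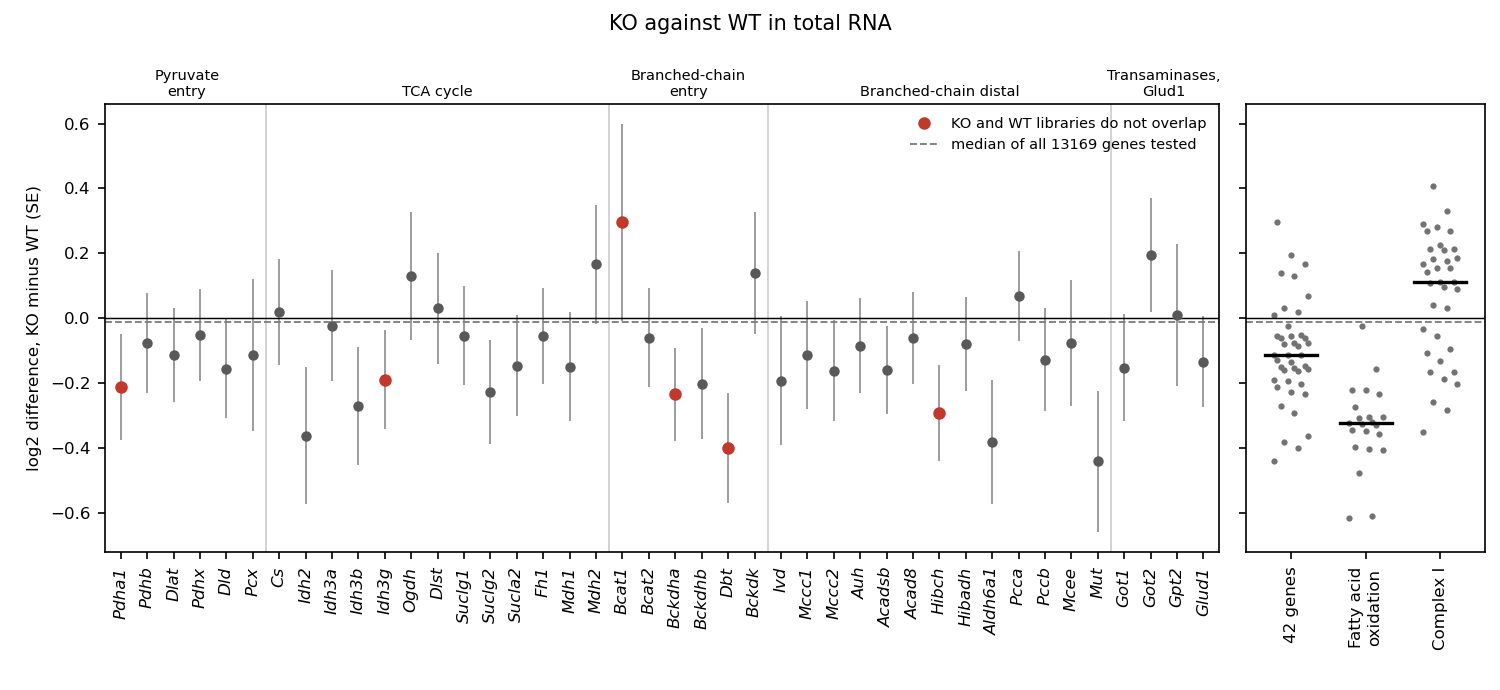
Left, log2 difference KO minus WT in total RNA of each of the 42 genes, with SE bars. Red points mark the 6 genes whose KO and WT libraries did not overlap and the dashed line the median of all genes tested (-0.01). Right, the same quantity for the 42 genes, 22 fatty acid oxidation genes and 36 complex I genes, with medians as bars at -0.11, -0.32 and 0.11.

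Beside the set, lists of other mitochondrial genes were compared. All 22 genes listed for fatty acid uptake and oxidation were lower in KO (20 to 22 under the alternatives; median log2 -0.32), in 13 of them the libraries did not overlap, and 6 had an unadjusted p under 0.05. Of 36 respiratory complex I genes, 12 were lower, with a median of 0.11 that turned to -0.04 without WT replicate 3, to -0.13 without KO replicate 3 and to -0.09 with library size alone. The set's median lay between those of these lists, except without KO replicate 3, where it was -0.11 and above both. No test of the difference between these lists and the 42 genes was made. Of the other listed pathway genes, 6 of 9 for pyruvate transport and control of pyruvate dehydrogenase, 6 of 12 for the rest of the cycle, 8 of 15 for the rest of branched-chain breakdown, 10 of the 16 tested (22 listed) of other amino acid breakdown and 3 of 5 for lipoate synthesis were lower in KO, and none passed the adjusted test.

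Of these other genes, the one with the smallest p was Pdpr, the regulatory subunit of the phosphatase that reactivates pyruvate dehydrogenase. It had 56.4, 43.3 and 37.5 CPM in KO and 70.5, 82.3 and 71.2 CPM in WT, a log2 difference of -0.71 (unadjusted p = 0.0032, Benjamini-Hochberg adjusted p = 0.897 in edgeR). Pdp1, a catalytic subunit of the same phosphatase, had 89.7, 88.3 and 80.0 CPM in KO and 107, 99.9 and 110.0 CPM in WT (log2 -0.30), again without overlap. Acat1, the thiolase that completes isoleucine breakdown, had 198, 210 and 190 CPM in KO and 265, 227 and 306 CPM in WT (log2 -0.42). Echs1, an enoyl-CoA hydratase that is also in the fatty acid list, had a log2 difference of -0.31. In the rest of the cycle, the succinate dehydrogenase subunit Sdha and the cytosolic Idh1 had log2 differences of -0.19 and -0.21, each with no overlap between the groups. Gpt, the cytosolic alanine transaminase, had -0.27 and Aldh18a1, which makes proline precursors, 0.40.

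Tissue markers differed in the same libraries. Of 11 fast-fibre markers, 10 were higher in KO total RNA, with no overlap between the KO and WT sums given above. The remaining marker, Myh2, was lower in KO, with no overlap between its KO and WT libraries. Its log2 difference was -0.74 ± 0.19 (unadjusted p = 0.0035, Benjamini-Hochberg adjusted p = 0.8965 in edgeR). Markers of muscle of any fibre type summed to 86235 to 122732 CPM in KO and 52656 to 92703 CPM in WT. Slow-fibre markers, 9 genes, summed to 204 to 468 CPM in KO and 145 to 501 CPM in WT. Of 9 adipocyte markers, 8 were lower in KO, with a median log2 difference of -0.75 and a range of -2.21 to 0.47. Their sums, 2928 to 3711 CPM in KO, lay inside the 1652 to 4254 CPM of WT. Of 7 brown fat markers, Ucp1 and Elovl3 had too few counts in total RNA to be tested. Of the 5 tested, 3 were lower, from Cidea at -5.57 ± 1.55 to a highest value of 0.27. The 7 summed to 685 to 1354 CPM in KO and 748 to 1615 CPM in WT. With Ucp1 and Elovl3 that low, these sums do not by themselves measure brown fat. In bulk RNA, fewer cells of a type and less RNA per cell cannot be told apart, and the part of fibre type or fat in the levels of the 42 genes was not tested. Endothelial (6 of 7), smooth muscle (6 of 6), nerve (5 of 7) and fibroblast (4 of 7) markers were mostly higher in KO, with sums of 578 to 762, 674 to 965, 74.5 to 215 and 3741 to 6461 CPM in KO, against 508 to 577, 535 to 647, 90.6 to 152 and 2892 to 4680 CPM in WT. Macrophage markers were lower (8 of 8; 193 to 282 CPM in KO and 179 to 397 CPM in WT). Of blood and liver markers, 5 of 7 and 1 of 6 had enough counts to be tested, and up to 5 liver markers were at 0.

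In the IP, KO against WT gave the set no direction that held in every library. Of the 42 genes, 19 were higher and 23 lower in KO IP, with a median log2 difference of -0.02, beside 0.01 for all 10730 genes tested, of which 49.1% were lower. Without KO IP replicate 1, 30 were lower (median -0.17), and without KO IP replicate 2, 14 (median 0.13). Without WT IP replicate 1, 30 were lower (median -0.17), and without WT IP replicate 2, 16 (median 0.11). With library size alone, 11 were lower (median 0.13) and all genes had a median of 0.16. No gene of the set or of all genes passed at a Benjamini-Hochberg adjusted p of 0.05 in edgeR (0% called lower), where 1128 of all genes had an unadjusted p under 0.05. DESeq2 called 85 genes, 1 of them a member, Bckdk. With 2 libraries a group, libraries failed to overlap in 20.8% of all genes on the higher and 20.3% on the lower side, and in 6 members on each side. Beside the set, 33 of 36 complex I genes were lower in KO IP (31 to 35 with a library left out; median log2 -0.49). Of these 36, 15 were lower at an unadjusted p under 0.05 in edgeR, against 4.83% of all genes. Without overlap, 27 lay lower and 1 higher. Of the 21 fatty acid oxidation genes tested, 10 were lower (median 0.03). The difference between these lists and the set was not tested.

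The branched-chain dehydrogenase kinase gene Bckdk had 135 and 114 CPM in KO IP and 208 and 213 CPM in WT IP. It was the 1 member with an unadjusted p under 0.05 in this comparison, where 4.83% of all genes had one on the lower side. Its log2 difference was -0.77 ± 0.22 (unadjusted p = 0.0036, Benjamini-Hochberg adjusted p = 0.251 in edgeR), and -0.79 in DESeq2, where it passed. Over all alternatives it ranged from -0.89 to -0.63. In the complex that this kinase controls, Bckdha had 133 and 120 CPM in KO IP and 144 and 163 CPM in WT IP (log2 -0.29 ± 0.23), whereas Dbt had 49.7 and 57.9 CPM in KO IP and 50.1 and 32.8 CPM in WT IP (log2 0.39 ± 0.29), with overlap.

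The other members whose IP libraries did not overlap had smaller differences than Bckdk. Lower in KO IP were Suclg1 (-0.28), Mdh2 (-0.42), Bcat2 (-0.25), Bckdha and Gpt2, the mitochondrial alanine transaminase (-0.35). Higher in KO IP were Pcx, pyruvate carboxylase (log2 0.34), Idh2 (0.22), Mccc1 and Mccc2, the 2 subunits of methylcrotonyl-CoA carboxylase of leucine breakdown (0.43 and 0.22), Aldh6a1 (0.36) and Mcee, the epimerase before Mut (0.48). Mcee had 52.9 and 30.5 CPM in KO IP and 29.1 and 28.1 CPM in WT IP, so 1 KO library carried most of that difference. Bcat1 had 0 counts in KO IP replicate 1, where 3 counts would be 3.27 CPM, and 34 counts in KO IP replicate 2, so its IP level was not resolved at this depth. Fibroblast markers summed to 11998 to 13514 CPM in KO IP and 5550 to 7370 CPM in WT IP (7 of 7 higher), and muscle markers of any fibre to 53927 to 66052 CPM in KO IP and 77869 to 85615 CPM in WT IP (6 of 8 lower). Blood markers summed to 543 to 870 CPM in KO IP and 179 to 346 CPM in WT IP (4 of 4 tested higher, all with an unadjusted p under 0.05), nerve markers to 510 to 512 CPM in KO IP and 293 to 445 CPM in WT IP (6 of 6 tested higher), and endothelial markers to 803 to 1275 CPM in KO IP and 731 to 737 CPM in WT IP (7 of 7 higher). None of these 5 lists overlapped between the genotypes in its sum. Neither did brown fat markers, at 1161 to 1466 CPM in KO IP and 1604 to 2174 CPM in WT IP (6 of 6 tested lower). Among these, Cox7a1 (log2 -0.60) and Cox8b (-0.52) alone had an unadjusted p under 0.05 in edgeR. Ucp1 stood at -0.39 ± 0.63, so these sums do not by themselves measure brown fat either. The other marker lists overlapped. With 2 libraries a group, 20.8% of all genes did not overlap on the higher and 20.3% on the lower side. The part of the tissue markers in the members' IP levels was not tested.

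Against total RNA, most of the set was lower in the IP, in KO as in WT. Of the 42 genes, 26 passed the test as lower in KO IP than in KO total RNA, and 26 as lower in WT IP than in WT total RNA, where 18.8% and 19.4% of all 14399 genes did (Benjamini-Hochberg adjusted p under 0.05 in edgeR). Without KO IP replicate 2, 15 members passed as lower in KO. As higher passed 2 members in KO and 1 in WT, where 17.7% and 17.6% of all genes did. The median log2 difference of the set was -0.81 in KO and -0.97 in WT, beside 0.03 and -0.05 for all genes. The KO IP came from muscle labelled as lacking IMP2.

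Tissue markers differed between IP and total RNA in the same contrasts. Fast-fibre markers had median log2 differences of -1.74 in KO (8 of 11 called lower) and -0.43 in WT (5 called lower, 1 higher), and muscle markers of any fibre -1.19 in KO and -0.55 in WT. Fibroblast markers had medians of 1.23 in KO and 0.87 in WT, with 5 of 7 called higher in each. Blood markers stood at 2.37 in KO and 1.32 in WT, nerve markers at 1.61 and 0.36, macrophage markers at 0.78 and 0.65, smooth muscle markers at 0.53 and 1.07, endothelial markers at 0.52 and 0.31, adipocyte markers at 0.66 and 0.13 and brown fat markers at 2.05 and -0.02. The brown fat markers ranged from -0.07 to 7.45 in KO and from -3.01 to 2.39 in WT, and their medians do not by themselves measure brown fat. Islet markers stood at -1.69 in KO, where total RNA replicate 1 held most of them, and at 7.06 in WT, where total RNA held almost none. The part of these in the members' IP differences was not tested.

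By role, the medians were -1.11 in KO and -1.14 in WT for pyruvate entry, -1.32 and -1.19 for the cycle, -0.80 and -1.20 for later branched-chain steps and -0.61 and -0.44 for transaminases and glutamate dehydrogenase. The 6 branched-chain entry genes stood at -0.01 in KO and -0.04 in WT, near the median of all genes. In KO, with library size alone, the median was 0.47 over all genes and -0.38 over the set, with 19 members called lower and 4 higher. Fatty acid oxidation genes had medians of -0.65 in KO and -0.74 in WT, and complex I genes -0.19 in KO and 0.41 in WT. The complex I median in KO turned to 0.09 without KO total RNA replicate 3 and to 0.26 with library size alone.

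The members called lower were in good part shared, 22 of the 26 in each genotype. Called lower in KO alone were Bckdha, Bckdk, Got2 and Gpt2, in WT alone Pcx, Idh2, Dlst and Got1, and in neither direction in either genotype Cs, Ogdh, Bcat1, Bcat2, Bckdhb, Ivd, Acad8, Pccb, Mcee and Glud1. Passing in a single genotype is not itself a genotype difference. Bckdha, Dlst and Got1 stood at log2 -0.54, -0.55 and -0.52 in KO and -0.47, -0.59 and -0.58 in WT. Of the genes called lower in a single genotype, only Bckdk had an unadjusted p under 0.05 for the genotype difference in edgeR. Across the 42 genes the difference of IP over total RNA in KO followed that in WT with a Pearson's r of 0.917 and a Spearman's rho of 0.902, a description over genes, which are not independent replicates and share one scaling. The mean of both differences had a correlation near 0 with exon length (r -0.009, rho -0.028) and a negative one with the level in WT total RNA (r -0.421, rho -0.307), which also enters the difference itself.

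The members with the largest differences called in both genotypes came from several steps. Pcca, the alpha subunit of propionyl-CoA carboxylase (chromosome 14), had 16.3 and 8.09 CPM in KO IP, against 65.5, 56.4 and 60.9 in KO total RNA, and 13.9 and 12.9 CPM in WT IP, against 53.9, 61.4 and 58.1 in WT total RNA, with TMM scaling over all 10 libraries as in the rest of this section. The log2 differences were -2.52 ± 0.27 in KO and -2.11 ± 0.25 in WT, while its partner subunit Pccb had 118 and 115 CPM in KO IP and 116, 108 and 102 in KO total RNA. In WT, Pccb had 119 and 149 CPM in the IP and 112, 139 and 104 in total RNA. Pcca passed as lower in both genotypes and Pccb in neither.

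Pdha1 had 214 and 143 CPM in KO IP and 833, 825 and 688 in KO total RNA, and 156 and 213 CPM in WT IP and 892, 916 and 896 in WT total RNA. Its differences were -2.14 ± 0.25 in KO and -2.28 ± 0.25 in WT. Mdh1 had 225 and 131 CPM in KO IP and 765, 819 and 933 in KO total RNA, and 203 and 312 CPM in WT IP and 986, 852 and 942 in WT total RNA. Its differences were -2.25 ± 0.28 in KO and -1.85 ± 0.27 in WT. For Pdha1 and Mdh1 alike, every IP library lay below every total RNA library. Among the 5 members named by size that passed in both genotypes (Pcca, Mut, Pdha1, Mdh1 and Acadsb), the adjusted p ranged from 2.1e-05 (Pdha1 in WT) to 0.0035 (Acadsb in WT) in edgeR with Benjamini-Hochberg adjustment.

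Mut had 18.2 and 13.1 CPM in KO IP and 62.0, 72.2 and 53.4 in KO total RNA, and 6.73 and 22.6 CPM in WT IP and 71.8, 69.4 and 112 in WT total RNA. The differences were -2.08 ± 0.40 in KO and -2.51 ± 0.39 in WT, and the call in KO was lost without KO IP replicate 2 (log2 -1.79). The WT IP libraries rested on 16 and 58 counts and lay apart from each other. Cs and Ogdh did not pass in either genotype. Cs had 1204 and 1015 CPM in KO IP and 1328, 1368 and 1241 in KO total RNA, and 868 and 1243 CPM in WT IP and 1236, 1362 and 1267 in WT total RNA.

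Acadsb, the dehydrogenase that acts on the isoleucine product 2-methylbutyryl-CoA (chromosome 7, 131410601 to 131448944, plus strand), was the member called higher in the IP in both genotypes. It had 159 and 128 CPM in KO IP and 75.8, 69.5 and 66.8 in KO total RNA, and 122 and 161 CPM in WT IP and 83.8, 79.5 and 72.6 in WT total RNA. Every IP library lay above every total RNA library. The log2 differences were 1.01 ± 0.19 in KO and 0.84 ± 0.19 in WT, and without WT IP replicate 2 the WT difference was 0.55 and no longer passed. Acad8, the related dehydrogenase of valine breakdown, had 55.7 and 48.3 CPM in KO IP and 54.3, 60.1 and 59.2 in KO total RNA and passed in neither genotype.

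**Figure D3:**
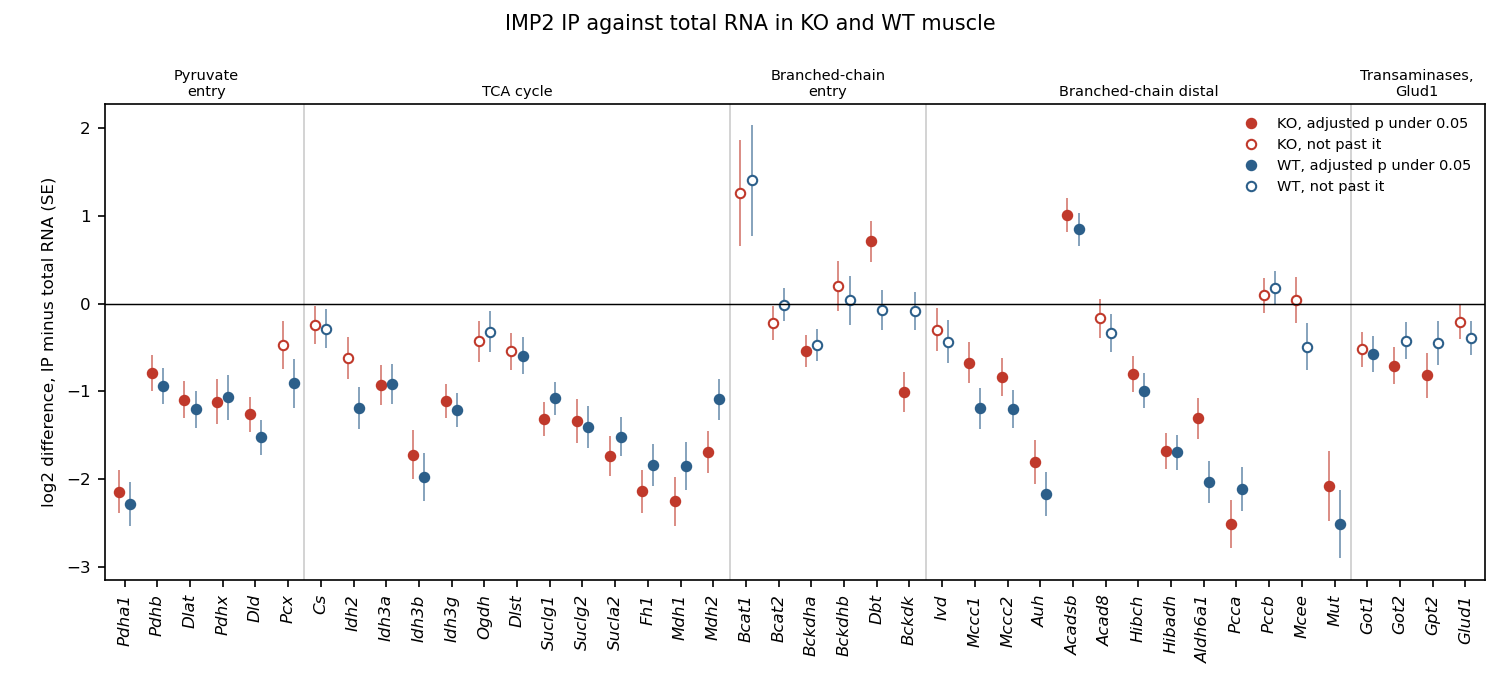
Log2 difference IP minus total RNA of the 42 genes, KO (red, left) and WT (blue, right), with SE bars, from the fit of 10 libraries. Filled points passed at an adjusted p of 0.05. Most genes lie below 0 in both genotypes, Acadsb lies above 0 in both, and branched-chain entry genes lie on both sides of 0.

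The genotype difference of IP over total RNA, the direct comparison of the KO and WT contrasts, called 1 of 14399 genes, a lower one (0.00694%), and no member (Benjamini-Hochberg adjusted p under 0.05 in edgeR). DESeq2 called 21 genes and no member. At an unadjusted p under 0.05 were 3 members, 1 of them lower and 2 higher in KO, where 5.38% of all genes were lower and 6.45% higher, so the set's shares were near those of all genes. The median of the set was 0.09, beside 0.02 for all genes, and turned to -0.07 without KO IP replicate 1 and to -0.08 without WT IP replicate 1. Of 36 complex I genes, 33 were lower in this comparison (median -0.54), and 25 with library size alone (median -0.17). Of 22 fatty acid oxidation genes, 5 were lower and 17 higher (median 0.34).

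These 3 members belong to branched-chain breakdown. Bckdk had 120 and 102 CPM in KO IP and 224, 207 and 236 in KO total RNA, against 187 and 192 CPM in WT IP and 242, 210 and 151 in WT total RNA. The log2 difference of IP over total RNA was -1.01 ± 0.22 in KO and -0.09 ± 0.21 in WT, a genotype difference of -0.92 ± 0.31 (unadjusted p = 0.0094, Benjamini-Hochberg adjusted p = 0.342 in edgeR), or -0.57 with library size alone. In KO the call was lost without KO IP replicate 2 (log2 -0.90).

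Dbt had 44.2 and 52.1 CPM in KO IP and 30.6, 32.8 and 26.1 in KO total RNA, against 45.0 and 29.6 CPM in WT IP and 36.5, 34.7 and 46.3 in WT total RNA. Its KO difference of 0.71 ± 0.23 passed, its WT difference of -0.07 ± 0.23 did not, and the difference between them was 0.78 ± 0.33 (unadjusted p = 0.031, Benjamini-Hochberg adjusted p = 0.382 in edgeR), or 0.46 without WT IP replicate 2. The KO call was lost without KO total RNA replicate 1 (0.72), without KO total RNA replicate 3 (0.62) and without KO IP replicate 2 (0.55).

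Aldh6a1 had 42.3 and 41.1 CPM in KO IP and 105, 123 and 80.2 in KO total RNA, against 29.9 and 35.1 CPM in WT IP and 131, 116 and 153 in WT total RNA. Both genotypes passed as lower in the IP, with log2 -1.31 ± 0.23 in KO and -2.04 ± 0.24 in WT, and the difference between them was 0.73 ± 0.32 (unadjusted p = 0.038, Benjamini-Hochberg adjusted p = 0.397 in edgeR), or 1.11 with library size alone. Between genotypes, its log2 difference was -0.38 in total RNA and 0.36 in the IP, each in its own fit. Exons of Aldh6a1 overlap Bbof1 on the opposite strand.

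**Figure D4:**
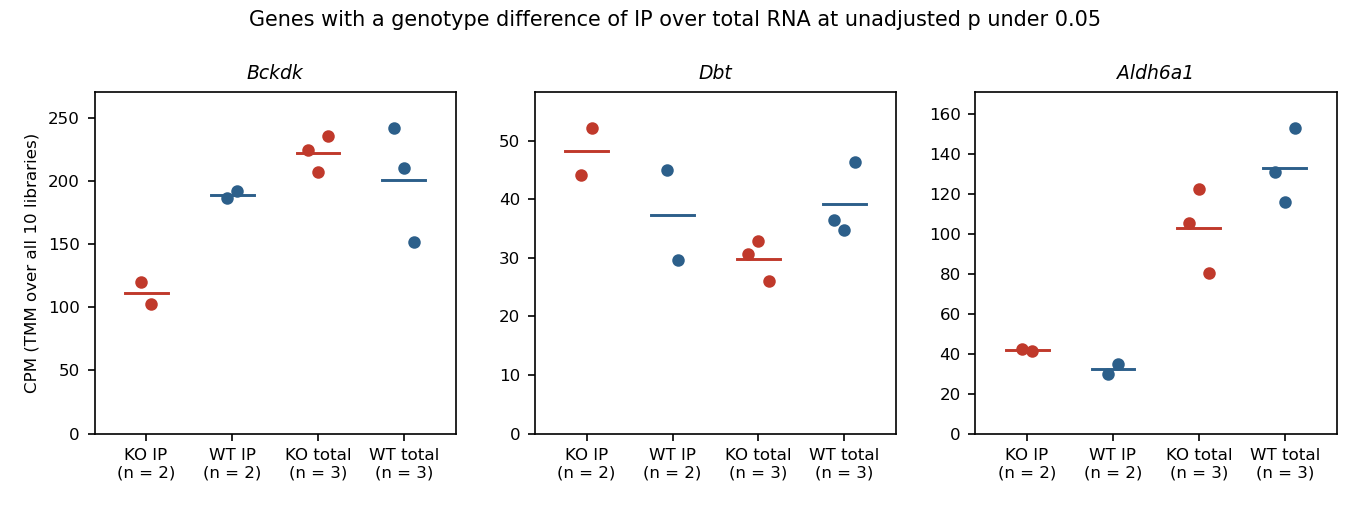
Level of Bckdk, Dbt and Aldh6a1 in each library, in CPM with TMM scaling over all 10 libraries, from 0 on a linear axis. Points are libraries and bars group means. The KO IP libraries of Bckdk (120 and 102 CPM) lie below the WT IP libraries (187 and 192 CPM), and the KO IP libraries of Aldh6a1 (42.3 and 41.1 CPM) above those of WT (29.9 and 35.1 CPM).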

How the data were processed

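Total RNA (3 KO and 3 WT libraries) and IMP2 IP RNA (2 KO and 2 WT) of mouse skeletal muscle were analysed. The deposited files hold raw counts of reads per Ensembl gene, made by the authors with STAR and HTSeq on mm10 (GRCm38), per the submitters' processing notes; versions, annotation release and strand setting are not given in the sources used here. Lines for reads given to no gene were left out. The line for alignments to several places held 26.1% to 43.3% of each file's total over all lines. Leaving it out can lower genes with near-identical copies. All 37 mitochondrially encoded genes had 0 counts and were not analysed here.

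Genes were filtered with filterByExpr, scaled by TMM and tested with edgeR 4.0.16 (quasi-likelihood F test, two-sided, R 4.3.3), Benjamini-Hochberg adjusted over all genes tested at 0.05. The genotypes were set against each other within the 6 total RNA libraries and within the 4 of the IP. One model over the 10 libraries yielded the IP minus total RNA contrast per genotype and the difference of these contrasts. All 42 genes passed the filters. SE is derived from the F statistic. CPM use TMM factors of the fit; levels per kb use exon unions of GENCODE in GRCm38. A count of 0 allows 3 counts, 0.203 to 0.310 CPM in total RNA and 0.743 to 3.27 CPM in IP libraries, for counting error only. No replicate pair held the same values. The test was tried on simulated counts. Alternatives were RLE or library size scaling, no filter, DESeq2 1.42.0, other fits, a replicate block and leaving out libraries.

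Named were members with an unadjusted p under 0.05 or without overlap between KO and WT, up to 4 in each direction with the largest IP difference in both genotypes, partner genes by role, and, of each other list, genes among the 4 with the smallest p. Mut, Aldh6a1, Idh2 and Mdh2 in total RNA, Dbt in the IP, and Cs, Pccb and Acad8 in IP over total RNA were named after their values were seen. Members and lists were chosen with earlier results of these data known, and no p is adjusted over the list. Exons of 9 members overlap a gene on the opposite strand (Pdha1, Idh3b, Mdh1, Bcat1, Bckdha, Mccc1, Aldh6a1, Pcca and Mut) and those of Hibadh 1 on the same strand.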

Additional observations from a re-analysis of the deposited data

How the results depend on the processing

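The set's median in total RNA stayed below 0 under every alternative run (-0.12 to -0.07 when a library was left out, -0.33 with library size alone). Among named genes, 730 values kept direction and call, 6 reversed, 6 lost and 1 gained the call. Calls over all genes in total RNA were 64 without the filter and 3 with DESeq2. In the IP between genotypes they were 1 with library size alone, 103 without the filter, 85 with DESeq2 (1 member, lower), 1 in the fit of 10 libraries and 13 to 146 with a library left out. Against total RNA in KO, leaving out a library gave 2148 to 5706 calls, 15 to 29 members lower (15 without KO IP replicate 2), 1 to 3 higher and a median of -0.94 to -0.75, and library size alone 4 higher and -0.38. In WT it gave 0 to 2 members higher and a median of -1.21 to -0.85. The genotype difference of IP over total RNA had 0 calls with library size alone, 263 without the filter, 21 with DESeq2 and 0 to 1 with a library left out, and the set's median was 0.47 with library size alone (0.40 for all genes) and -0.077 to 0.18 with a library left out. Reversed values were those of Mdh2 (-0.054) and Bckdk (-0.061) in total RNA with library size alone. With a library left out, Bckdk ranged from -0.017 to 0.29 in total RNA and from -0.25 to 0.068 in WT IP over total RNA, and Dbt from -0.42 to 0.12 in that contrast. The cause was not tested. Shallow IP libraries, 917462 counts in the smallest, limit members with few counts, such as Bcat1 and Mut.

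Replicate numbers were not taken as pairs. Same-numbered KO and WT libraries correlated at 0.116, -0.135 and -0.337 in total RNA and -0.074 in the IP. Same-numbered IP and total RNA libraries correlated positively, at 0.126 and 0.1495 in KO and 0.107 and 0.095 in WT. Different numbers lay between -0.1495 and 0.0056. These are correlations of deviations from the group mean, so with 2 IP libraries each value recurs with its sign changed for the other IP library. The values of different numbers thus give no separate contrast. The positive ones are at most a hint from the data, with 2 pairs a genotype, and not from the labels. With a replicate block, calls over all genes were 0 in total RNA, 28 in the IP, 4515 and 4526 in IP over total RNA (KO and WT) and 0 for the genotype difference.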
